A study of Mus musculus with 10 samples.

Results

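Small nuclear RNAs (snRNAs), small nucleolar RNAs (snoRNAs) and small Cajal body RNAs (scaRNAs) are short non-coding RNAs of the nucleus. Members were taken as every gene that GENCODE M21 types as snRNA, snoRNA or scaRNA and that had at least 20 counts summed over the 10 libraries. This gave 298 genes (192 snoRNA, 89 snRNA and 17 scaRNA) of 2941 genes of these types and of 52636 genes in the count table, and 2150 genes of these types had no count. Just inside the minimum lay 6 genes with 20 counts, and just outside it 8 genes with 19. Some loci carry 2 gene identifiers that differ by a base, so the 298 genes stand for 286 separate loci.

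The cells came from DIN, a mouse model of acute myeloid leukaemia made by transducing fetal liver cells with MSCV retroviral vectors for DNMT3A R882H (in a TRI vector with dsRed), IDH2 R140Q (with GFP) and NRAS G12D (with the TTA transactivator). Frozen cells of moribund mice were passed to Ptprca recipients, which were fed with or without doxycycline for 5 or 14 days. Doxycycline turns off the DNMT3A R882H vector alone, so "off" means doxycycline and "on" means none, and all groups carry the other vectors. There were 4 day 14 off libraries and 2 each of day 14 on, day 5 off and day 5 on, from sorted cKit+/Cd11b- cells of marrow and spleen. The labels do not say which tissue or how many mice each library came from, so p-values measure the spread between these libraries, which may be technical. No group received doxycycline without the vector, so effects of the drug and of R882H loss cannot be told apart.

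The spliceosome is built on snRNAs bound by a ring of Sm proteins. U1, U2, U4, U5 and U6 serve most introns, U11, U12, U4atac and U6atac serve a rare intron class, and U7 trims histone mRNA ends. Box C/D snoRNAs guide 2′-O-methylation of RNA and box H/ACA snoRNAs guide pseudouridylation, in both cases mainly of ribosomal RNA, while scaRNAs guide the same changes on snRNAs. Most mammalian snoRNAs are cut from introns of a host gene. Mature forms of these RNAs have no poly(A) tail, whereas QuantSeq 3′ libraries start from oligo-dT priming, so a count here may come from an A-rich stretch, a tailed precursor or decay intermediate, or the host transcript. Which of these gave a count was not tested, and a level is not the abundance of the mature RNA.

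Counts per library ran from 9292644 to 14340624, of which members took 0.111% to 0.215%. Day 5 on replicate 1 stood apart, with 0.215% against 0.113% in day 5 on replicate 2. In these libraries Gm22710 was at 921 and 268 CPM, and the other members summed to 1327 and 865 CPM. Among the marker lists, 6 of 10 erythroid genes were higher at day 14 off, with a summed level of 3044 to 4181 CPM (counts scaled to a common library size with TMM factors) against 1207 and 1971 CPM at day 14 on. Kit, a gene of the sort, was lower at day 14 off (30.9 to 36.4 CPM) than on (88.9 and 98.1 CPM), and Itgam, the other sort gene (Cd11b), was at 2.07 to 3.73 CPM against 21.9 and 8.76 CPM. Neutrophil genes summed to 595 to 974 CPM against 1672 and 992 CPM, with 2 of 5 called lower, and the B cell list to 5.84 to 6.96 CPM against 6.84 and 5.24 CPM with none called. Of the T and NK cell genes 1 of 4 tested was called lower, with a median log2 change of -0.04 over those 4. Of the macrophage genes 1 of 4 was called lower and none higher, but their median log2 change was 0.34. The macrophage genes summed to 27.9 to 45.9 CPM at day 14 off against 31.7 and 26.1 CPM on, and the groups overlapped. Counts at Dnmt3a were 31.9 to 39.2 CPM at day 14 off and 55.9 and 73.6 CPM at day 14 on, and at day 5 they were 65.6 and 50.2 CPM off and 52.8 and 51.2 CPM on. The log2 change was -0.90 ± 0.16 at day 14 (SE; adjusted p = 0.00186) and 0.15 ± 0.19 at day 5 (adjusted p = 0.754, edgeR); whether vector transcripts add to these counts is not known. The part of these shifts in cell makeup in the results below was not tested, and fewer cells of a type and less RNA per cell cannot be told apart in bulk libraries.

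Members overlapped other genes in most cases. By position, 125 lay in an intron and 107 in an exon of a same-strand gene, 19 overlapped only an opposite-strand gene and 47 overlapped no other gene. The counts of 25 members were within 2% of those of an overlapping gene in all 10 libraries, so those reads were counted for both genes. The overlapping gene can be another member rather than a host, as 24 members shared a locus with another member. Reads of copies with identical sequence cannot be told apart, and how they were assigned was not tested: 4 identical U2 genes had 2119 to 2957 counts in total, and 7 identical U1a genes 439 to 559. Near-identical copies (at least 97% identity over at least 80% of the longer sequence) existed for 107 members, and values of such copies are uncertain for the single gene. The letters ATTTTTGG, an Sm-site form, were found on the transcribed strand in 4.36% of members and 0.850% of all 2941 genes. The 13 members with them were the tested U2 copies and Gm22710, so the share rests mainly on copies of 1 family. The highest number of A in any 20 bases had a median of 9 in members and 10.0 in the 2643 genes under 20 counts.

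At day 14, 65 members were higher and 3 lower with R882H off, of 177 that passed the low-count filter (edgeR quasi-likelihood test, adjusted p below 0.05 over 15916 genes). The background of the same test was 16.9% of all genes higher and 14.9% lower, against 36.7% and 1.69% of tested members. The median log2 change was 1.12 over tested members and 0.01 over all tested genes. A rare gene that passed the filter only through the group where it is high had to differ, so these shares do not speak for the other 121 members. Among the 55 members with a mean of at least 5 CPM, 27 were higher and 3 lower, where 20.7% of all genes at that level were higher and 15.4% lower. The 121 untested members summed to 44.3 to 51.6 CPM at day 14 off and to 35 and 29.0 CPM at day 14 on, without overlap. Membership needed 20 counts summed over 10 libraries, 4 of them day 14 off, which favours rare genes that are high there. That sum is drawn from the values that chose the members, so it is no support for a rise of the untested members. The total of 68 called members became 28 without day 14 on replicate 1, 41 without day 14 on replicate 2 and 44 without day 14 off replicate 2.

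**Figure D1:**
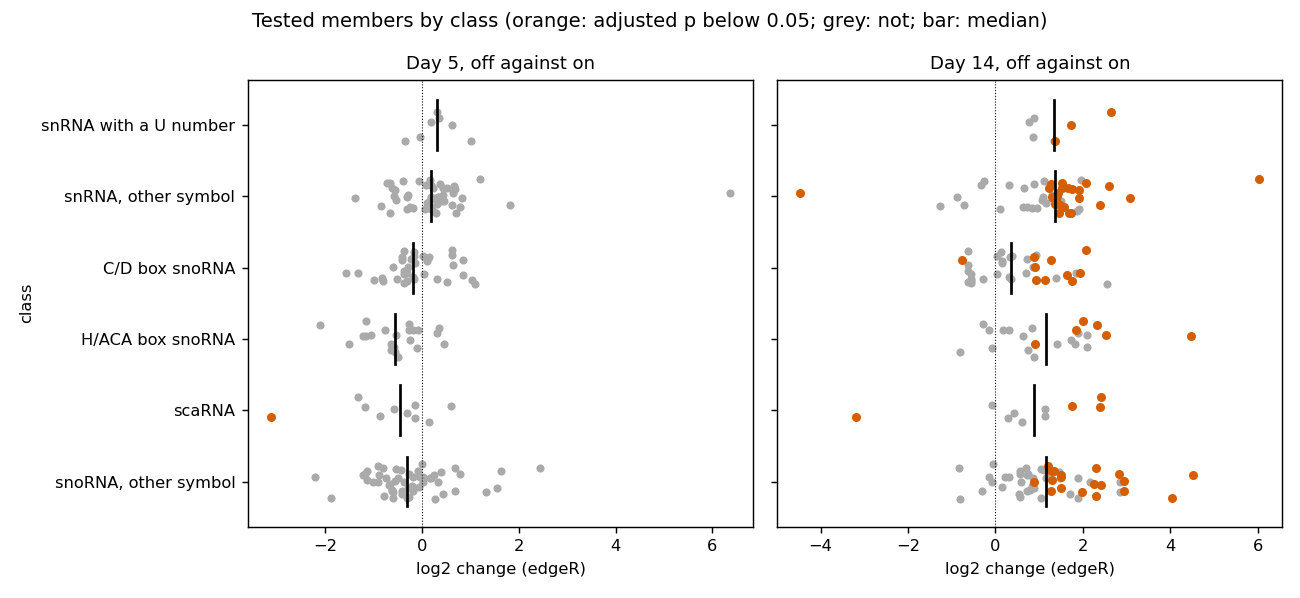
Each point is 1 tested member, placed by its log2 change between R882H off and on (horizontal axis) at day 5 (left) and day 14 (right) and by class (vertical axis); orange points have an adjusted p below 0.05 and black bars are class medians. At day 14 most points of every class lie right of 0 with 65 members called higher, while at day 5 the medians lie between -0.55 and 0.30 with 1 member called.

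Of 57 tested snRNA genes 28 were higher at day 14 off and 1 lower, a count that takes in near-identical copies of U1 and U2. The shares of all tested genes were 16.9% higher and 14.9% lower. U4, which base-pairs with U6 until the spliceosome is activated, was represented by 2 neighbouring copies, Gm24407 and Gm24265, whose sequences differ at 2 positions. Gm24407 was at 34.5, 44.6, 42.9 and 41.4 CPM in the day 14 off libraries and at 7.36 and 14.1 CPM at day 14 on. At day 5 it was at 16.8 and 24.0 CPM off and 22.5 and 15.9 CPM on. All 4 day 14 off libraries thus lay above every other library. The day 14 log2 change was 1.92 ± 0.28 (SE; adjusted p = 6.09e-04), and that of Gm24265 1.91 ± 0.27 (adjusted p = 5.73e-04, edgeR). Both copies lie between Sirt4 and the pseudogene Gm13836 and overlap no other gene.

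The sequence of Gm24407 (GENCODE M21, GRCm38/mm10, chr5:115490254-115490394, plus strand) is shown beside Gm22956 (chr5:138219737-138219816, plus strand), a shorter gene that matches it over 61 aligned bases at 91.8% identity and then diverges. Capitals mark the Sm-site form ATTTTTGA in Gm24407, found on the transcribed strand in 0.476% of the 2941 genes, and a run of 7 A in Gm22956, found in 1.87%.
Gm24407: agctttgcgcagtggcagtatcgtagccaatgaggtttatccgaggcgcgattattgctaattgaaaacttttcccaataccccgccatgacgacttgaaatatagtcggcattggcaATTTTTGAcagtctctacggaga
Gm22956: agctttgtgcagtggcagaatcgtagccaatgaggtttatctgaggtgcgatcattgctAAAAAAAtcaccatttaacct

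Gm22956, typed as snRNA, moved the other way and had the largest fall among tested members. It was at 0.254, 0.732, 0.551 and 1.13 CPM at day 14 off and at 9.95 and 19.6 CPM at day 14 on, a log2 change of -4.47 ± 0.42 (SE; adjusted p = 6.72e-05, edgeR). At day 5 it was at 4.54 and 5.36 CPM off and 9.55 and 16.3 CPM on, which did not pass the test. Both on groups lay above day 5 off, and day 5 off above day 14 off, without overlap, and the fall from day 5 off to day 14 off was -2.90 ± 0.45 (adjusted p = 0.00291, edgeR). The gene overlaps no annotated gene; the nearest are the lincRNA Gm43645 at 11764 bases and Nxpe5 at 6081 bases.

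All 12 tested copies of U2, the snRNA that pairs with the intron branch point, were higher at day 14 off, with log2 changes from 1.35 to 3.07. Rnu2-10 was at 28, 22.0, 27.3 and 24.5 CPM off and 7.05 and 8.22 CPM on at day 14 (log2 change 1.73 ± 0.27, adjusted p = 9.49e-04, edgeR). Its identical copy Gm23971 was at 37.3, 29.7, 36.8 and 35.3 CPM off and 12.4 and 12.6 CPM on (1.47 ± 0.33, adjusted p = 0.00689, edgeR). Since Rnu2-10 has 10 near-identical copies, these 12 calls are not 12 separate measurements. Gm22973 has no near-identical partner. It was at 9.57, 8.05, 10.9 and 8.56 CPM off and at 0.518 and 1.63 CPM on, and rose by 3.07 ± 0.42 (SE, log2; adjusted p = 4.41e-04, edgeR).

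Rnu2-10 (chr11:101658238-101658428, plus strand) and Gm22973 (chr12:59040335-59040525, plus strand) are shown because reads that cover a differing position can tell them apart. Counted from 1 at the 5′ end, with the Rnu2-10 base first, they differ by C67T, C78T, A107G, G109A, C148T, G152A, C170T, C179T and G183A, an identity of 95.3% over 191 bases. Reads that lie wholly before position 67 cannot be told apart, and how reads were assigned was not tested. Capitals mark ATTTTTGG.
Rnu2-10: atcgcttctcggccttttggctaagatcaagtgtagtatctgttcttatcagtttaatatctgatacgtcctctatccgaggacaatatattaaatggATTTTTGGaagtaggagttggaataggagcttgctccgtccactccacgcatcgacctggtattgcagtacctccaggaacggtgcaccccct
Gm22973: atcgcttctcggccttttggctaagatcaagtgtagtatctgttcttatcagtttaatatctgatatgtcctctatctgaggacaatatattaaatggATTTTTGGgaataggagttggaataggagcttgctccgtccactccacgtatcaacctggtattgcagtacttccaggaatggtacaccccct

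U1, which recognises the start of an intron, gave 7 of 12 tested U1a copies and 1 of 5 tested U1b copies higher at day 14 off, none lower. The U1a copies ranged in log2 change from 1.07 to 2.59. Rnu1a1 was at 7.45, 3.88, 3.79 and 6.21 CPM off and 1.55 and 2.62 CPM on, without overlap, but was not called. U5, which holds the exon ends during splicing, had 2 of 6 tested copies higher, and U6, the catalytic snRNA transcribed by RNA polymerase III, had 1 of 5 tested copies higher among 18 members. Since 16.9% of all tested genes were higher, 1 of 5 for U1b or U6 is near that share. U7 (Rnu7) had 33 counts in all and was not tested.

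Of the minor-spliceosome snRNAs, Rnu12 (U12, which pairs with the branch point of these introns) was higher at day 14 off. It was at 7.45, 6.74, 6.54 and 5.74 CPM off and 2.28 and 2.89 CPM on (log2 change 1.35 ± 0.36, adjusted p = 0.0160, edgeR), a call that was lost without either day 14 on library (adjusted p = 0.119 without replicate 1 and 0.0559 without replicate 2). Rnu11 (U11, which recognises their start) was at 44.1, 31.8, 29.9 and 34.8 CPM off and at 18.9 ± 1.51 CPM on (SD, n = 2), but did not pass (0.89, adjusted p = 0.110, edgeR). At day 5 on, Rnu11 was at 85.1 CPM in replicate 1 and 25.4 CPM in replicate 2.

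Gm22710, the U4atac gene, had the most counts of any member. It was at 310, 189, 209 and 387 CPM at day 14 off, 378 and 312 CPM at day 14 on, 405 and 349 CPM at day 5 off, and 921 and 268 CPM at day 5 on. The groups overlapped and no comparison called it (day 14 log2 change -0.33, adjusted p = 0.582, edgeR). It lies in an exon of 2900060B14Rik, 489 bases from that transcript's end, and held 99.4% to 100% of that gene's counts, so the values belong to both annotations alike. Gm26473, a gene 91.7% identical to the U6atac copy Gm25541 over 120 bases, had the largest rise among tested members. It had 56, 54, 45 and 39 counts at day 14 off against 0 and 1 on, or 4.74, 3.95, 3.10 and 3.67 CPM against 0 and 0.0903 CPM. It passed the low-count filter only through day 14 off, the group where it is high, so it had to differ. The ratio of summed counts, scaled to library size, was 79.4, with an exact 95% interval of 14.1 to 3153 that covers counting error only. It lies 12 bases from the end of a transcript of C5ar2, a complement receptor gene, which was at 15 to 20.8 CPM off and 14.6 and 11.4 CPM on and was not called.

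**Figure D2:**
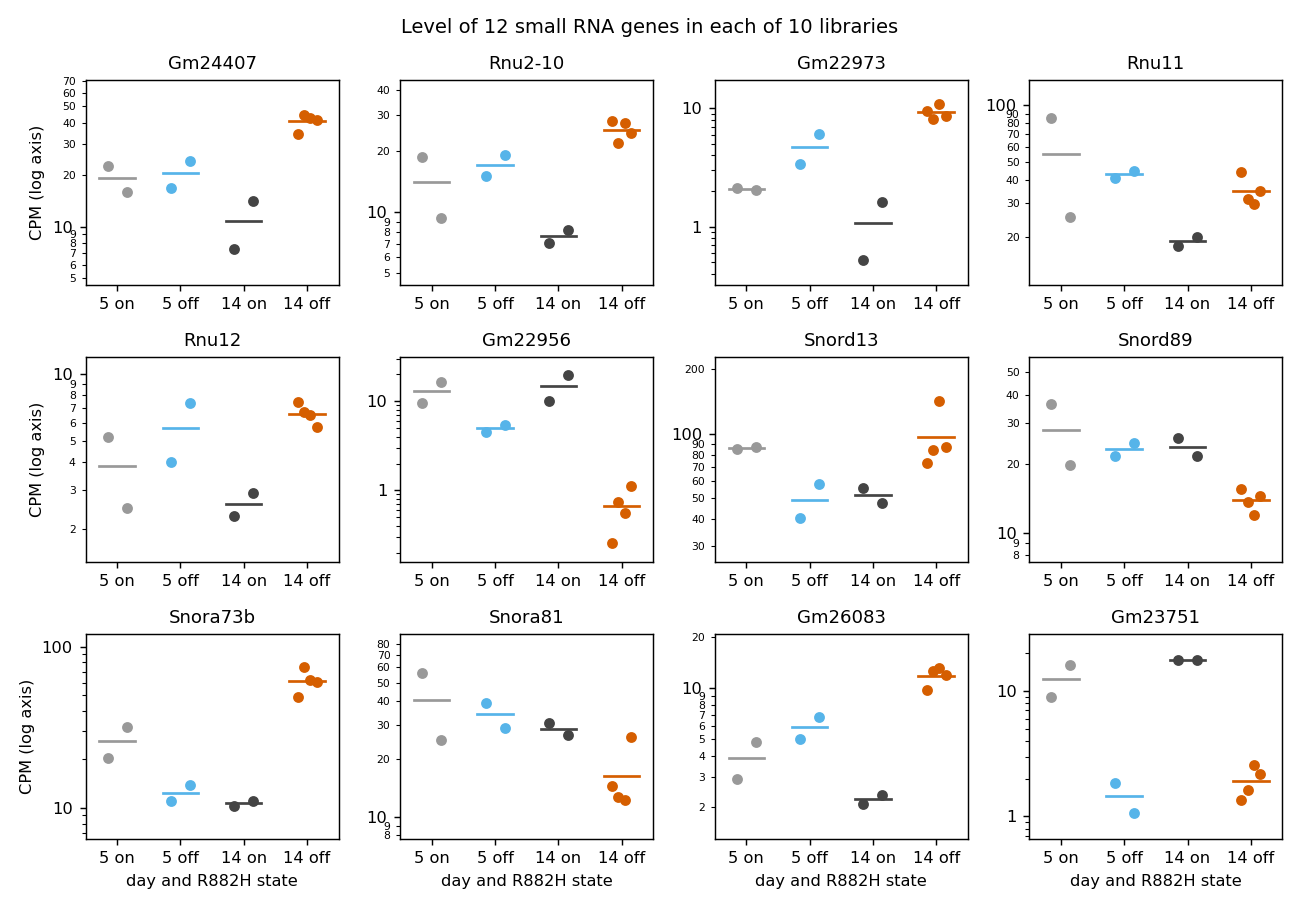
Each panel shows 1 gene, with CPM on a log axis against the 4 groups (5 on, 5 off, 14 on and 14 off); points are the 10 libraries and bars are group means. Gm24407, Rnu2-10, Gm22973, Snora73b and Gm26083 have all 4 day 14 off libraries above every other library, whereas Gm22956 has them below every other library and Gm23751 is low in both off groups.

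Box C/D snoRNAs named as such had 9 of 35 tested members higher at day 14 off and 1 lower, with a median log2 change of 0.36. Over all tested genes 16.9% were higher and 14.9% lower, and the 9 take in both entries of Snord80. Snord13 (U13, a C/D snoRNA involved in processing of small-subunit ribosomal RNA), which overlaps no other gene, was at 73.2, 84.1, 143 and 87.2 CPM off and 56 and 47.8 CPM on, and rose by 0.90 ± 0.26 (log2, SE; adjusted p = 0.0236, edgeR). The call was lost without day 14 on replicate 1 (adjusted p = 0.0799) and without replicate 2 (adjusted p = 0.141). Snord118 (U8, needed for large-subunit ribosomal RNA processing) was at 7.87, 7.03, 10.3 and 8.47 CPM off and 4.04 and 3.61 CPM on (2.20-fold higher, adjusted p = 0.0136, edgeR); it was named after its values were seen.

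Snord89, in an intron of the gene Gm15832, was the C/D snoRNA that fell. It was at 15.6, 13.6, 12 and 14.5 CPM at day 14 off and 25.8 and 21.7 CPM on, a change of -0.77 ± 0.23 (log2, SE; adjusted p = 0.0242, edgeR), while Gm15832 was not called (-0.23, adjusted p = 0.237). Without day 14 on replicate 1 the adjusted p was 0.135, and without replicate 2 it was 0.0526. Snord104 was at 28.8 to 35.5 CPM off and 22.7 and 36.3 CPM on, and the groups overlapped. None of the 10 tested entries of U3, a C/D snoRNA needed for cleavage in the 5′ spacer of the ribosomal RNA precursor, was called, with log2 changes from -0.63 to 0.04. The U3 entry Rnu3a was at 15.9 to 20.4 CPM off and 23.1 and 13.4 CPM on.

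Box H/ACA snoRNAs named as such had 6 of 22 tested members higher at day 14 off and none lower. Beside these stood 16.9% of all tested genes higher and 14.9% lower. The median log2 change of the H/ACA snoRNAs was 1.16, and 11 had an unadjusted p below 0.05. Snora73b (a U17 snoRNA, which acts in early ribosomal RNA cleavage), in an intron of Rcc1, was at 48.9, 75.2, 62.3 and 60.3 CPM at day 14 off and at 10.3 and 11.1 CPM on. It rose by 2.53 ± 0.24 (log2, SE; adjusted p = 7.27e-05, edgeR), while its host rose by 0.97 ± 0.25 (adjusted p = 0.0130). Rcc1 was taken as host for having the most counts, and no other gene containing Snora73b was compared. Snora73b counts were 19.0% to 25.7% of those of Rcc1 with R882H off at day 14, against 9.74% and 6.57% with it on. At day 5 the order was reversed, with 8.73% and 8.13% off and 19.0% and 18.8% on. Its near-copy Snora73a is 98.0% identical over 202 bases, so reads of both cannot be fully told apart. Gm26448, an 89.1% identical gene in an intron of Rpsa, had 14, 19, 32 and 5 counts off and 0 and 1 on (ratio 28.7, interval 4.98 to 1148), and was lost without day 14 on replicate 1 (adjusted p = 0.0595, edgeR).

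Snora75, in an exon of a transcript of Ncl (nucleolin, a protein of ribosome assembly), was rarer and its host was called higher as well (0.67 ± 0.15, adjusted p = 0.00713, edgeR). It had 13, 27, 12 and 14 counts at day 14 off against 1 and 0 on. The ratio was 27, with an exact 95% interval of 4.68 to 1083, and without day 14 on replicate 2 it no longer passed (adjusted p = 0.0525, edgeR). Its similar gene Gm22972 (94.7% identical over 132 bases, 2 bases from the end of a transcript of Dpep2, itself called higher at 1.21) had 7, 12, 12 and 10 counts off and 1 and 1 on. The ratio of Gm22972 was 8.39 with an interval of 2.18 to 71.6, and the call was lost without any of 5 of the 6 libraries compared (adjusted p from 0.0502 to 0.145). Snora57 was at 25.3 to 54.0 CPM off and 23.8 and 21.9 CPM on, and was not called (0.62, adjusted p = 0.108). Snora81, in an exon of Eif4a2, was at 14.4, 12.7, 12.3 and 26.1 CPM off and 30.8 and 26.6 CPM on (-0.81, adjusted p = 0.111, edgeR).

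Snora73b (chr4:132352322-132352526, minus strand) and Snora75 (chr1:86351169-86351301, minus strand) are shown as the H/ACA snoRNAs with the strongest differences between groups. Capitals mark the terminal ACA trinucleotide, searched 2 to 5 bases before the end. It was present without C/D boxes in 34.2% of members and 25.9% of all 2941 genes, and in 32 of 34 members with a Snora symbol.
Snora73b: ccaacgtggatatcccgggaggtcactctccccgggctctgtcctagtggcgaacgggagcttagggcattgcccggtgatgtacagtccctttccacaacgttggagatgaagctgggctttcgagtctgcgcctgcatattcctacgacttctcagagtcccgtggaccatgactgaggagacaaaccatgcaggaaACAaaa
Snora75: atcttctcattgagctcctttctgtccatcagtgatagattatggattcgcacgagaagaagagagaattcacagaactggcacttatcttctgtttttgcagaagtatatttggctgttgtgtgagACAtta

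Of 19 members named or typed as scaRNA 10 were tested, of which 3 were higher at day 14 off and 1 lower, with 4 at an unadjusted p below 0.05. Among all tested genes 16.9% were higher and 14.9% lower. Gm26083, a scaRNA gene in an exon of the non-coding host Snhg20 and 22 bases from a transcript end, was at 9.82, 12.7, 13.1 and 12 CPM off and 2.07 and 2.35 CPM on (2.42 ± 0.29, adjusted p = 2.01e-04, edgeR). Snhg20 was not called (0.35 ± 0.20, adjusted p = 0.211). The counts of Gm26083 made up 34.9% to 42.8% of those of Snhg20 with R882H off at day 14, against 10.5% and 8.67% with it on. Scarna17 was at 5.00 to 12.4 CPM off and 9.33 and 6.95 CPM on, and Scarna9 at 6.94 to 12.3 CPM off and 8.81 and 5.33 CPM on; the groups overlapped for both.

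Gm23751, a scaRNA gene in an intron of Chd4 (the NuRD chromatin remodelling ATPase), was low in both off groups. It was at 1.35, 1.61, 2.55 and 2.16 CPM at day 14 off and 17.7 and 17.8 CPM on, and at 1.86 and 1.06 CPM at day 5 off and 8.88 and 16.1 CPM on. It changed by -3.20 ± 0.31 at day 14 (log2, SE; adjusted p = 7.59e-05) and by -3.12 ± 0.41 at day 5 (adjusted p = 0.0227, edgeR). Chd4 changed alongside, by -2.82 ± 0.26 and -2.52 ± 0.33, from 2959 and 4353 CPM on to 477 to 550 CPM off at day 14. Gm23751 counts stayed between 0.253% and 0.781% of those of Chd4 in all 10 libraries.

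Gm23751 (chr6:125121724-125121859, plus strand) and Gm26083 (chr11:117077243-117077435, plus strand) are shown as the scaRNA genes with the strongest fall and rise. Capitals mark the ACA trinucleotide near the end.
Gm23751: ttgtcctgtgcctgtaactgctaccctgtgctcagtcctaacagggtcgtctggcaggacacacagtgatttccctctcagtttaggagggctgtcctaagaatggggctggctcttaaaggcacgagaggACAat
Gm26083: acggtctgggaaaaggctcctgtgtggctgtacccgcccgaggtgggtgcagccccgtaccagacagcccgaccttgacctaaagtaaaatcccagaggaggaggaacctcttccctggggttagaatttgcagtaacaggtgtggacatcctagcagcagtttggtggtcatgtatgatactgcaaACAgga

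SnoRNA genes without a Snord or Snora symbol had 19 of 53 tested members higher at day 14 off and none lower, with 27 at an unadjusted p below 0.05. The background over all tested genes was 16.9% higher and 14.9% lower. By sequence, 56 of the 100 such members held the ACA form alone and 20 the C/D boxes alone (TGATGA in the first 25 bases with CTGA in the last 20). Gm26205, in an exon of the ribosomal protein gene Rpl6, was at 24.6, 22.3, 19.8 and 25.5 CPM off and 9.22 and 9.66 CPM on (1.29 ± 0.19, adjusted p = 6.04e-04, edgeR), while Rpl6 was not called (0.15, adjusted p = 0.380). It was named after its values were seen.

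Of the 177 tested members, 126 had a tested same-strand host gene, and these lay in 82 hosts. At day 14 the median log2 change was 0.91 for the members and 0.25 for their hosts, and 93 members had the larger change. Of the 42 such members called higher, the host was higher for 13, lower for 1 and not called for 28. Member and host changes had a Pearson r of 0.47 across these 126 members, which share hosts and libraries and are no replicates. Members that overlap no other gene had 20 of 39 tested higher and 1 lower, those in a same-strand exon 24 of 61 higher, and those in a same-strand intron 19 of 69 higher and 2 lower. Of all tested genes, 16.9% were higher and 14.9% lower. Most of the 20 rises are copies of U1, U2 or U4, so these are not 20 separate measurements. Position and sequence family were not separated. Oligo-dT libraries read the ends of transcripts, and of members lying wholly inside a host exon, 16 of 35 tested were higher at 500 bases or less from a host transcript end and 7 of 20 further away, with medians of 1.26 and 1.34.

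**Figure D3:**
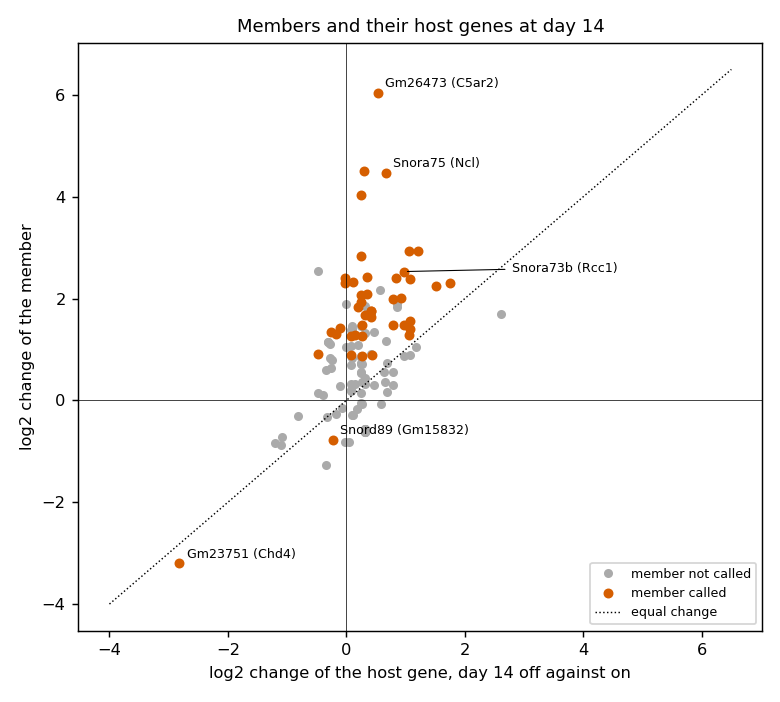
Each point is 1 of 126 members, with the day 14 log2 change of its host gene on the horizontal axis and its own on the vertical axis; orange points are called members and the dotted line marks equal change. Of these members 93 lie above the line, while Gm23751 lies near it with Chd4.

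Several hosts held at least 3 tested members, and their members changed to different extents at day 14. Gas5, a non-coding host of many C/D snoRNAs, had 4 of 8 tested members higher, with log2 changes from 0.55 to 4.04, and was itself not called (0.24 ± 0.14). The highest, Gm26224, had 8, 13, 11 and 16 counts at day 14 off and 1 and 0 on (ratio 19.6, interval 3.36 to 792), and was lost without day 14 on replicate 2 (adjusted p = 0.0827, edgeR). Eif4a2, a translation initiation gene, had 2 of 3 higher (range -0.81 to 2.41) with a host change of -0.02 ± 0.16. Within that host, Gm24616 rose from 2.07 and 1.17 CPM on to 7.62, 8.35, 9.84 and 6.12 CPM off, while Snora81 did not rise.

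Snhg1 had 2 of 4 members higher (0.31 to 1.99) and was itself higher (0.79 ± 0.17). Hspa8 had 2 of 3 (0.92 to 1.76), Rps12 1 of 3 (0.18 to 1.26) and Taf1d none of 4 (-0.06 to 0.85), and none of these hosts was called. The host 2410006H16Rik had 1 of 3 higher (0.14 to 2.54) and was itself lower (-0.48 ± 0.11). D230017M19Rik held 3 U2 copies, all higher (1.40 to 2.38), and Tex14 held 10 U1 and U3 entries, of which 1 was higher (-0.63 to 1.68); both hosts were near or under 1 CPM in all libraries.

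Other RNAs without a poly(A) tail were set beside the members. Replication histone mRNAs summed to 1432 to 1531 CPM at day 14 off, 784 and 640 CPM at day 14 on, 898 ± 22.4 CPM at day 5 off (SD, n = 2), and 1261 and 1010 CPM at day 5 on. Members without Gm22710 summed to 1224 to 1352, 834 and 766, 872 and 989, and 1327 and 865 CPM in the same order. For both sums day 14 off lay above day 14 on without overlap. Among small RNAs of other kinds 3 of 8 tested were higher at day 14 off, none lower, beside 16.9% and 14.9% of all genes: Rny1 was at 6.78 to 8.20 CPM against 2.80 and 1.81 CPM, Vaultrc5 at 5.78 to 7.28 against 2.69 and 1.90 CPM, and Rny3 at 5.65 to 13.5 against 3.42 and 4.43 CPM. The signal recognition particle RNAs Rn7s1 and Rn7s2 and the transcription regulator Rn7sk were not called (log2 changes -0.61, -0.45 and 0.18). The genes at ribosomal RNA loci, which took 7.78% to 16.5% of counts, were not called either (0 of 3). The part of capture efficiency in the members' results was not tested.

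**Figure D4:**
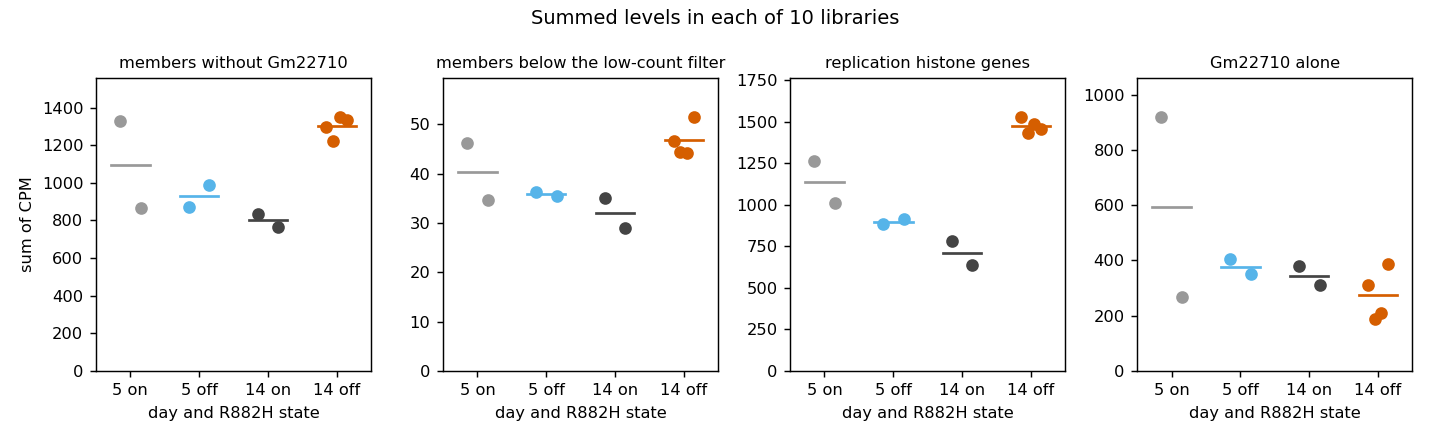
Summed CPM (vertical axes, from 0) in each of 10 libraries by group for members without Gm22710, for the 121 members below the low-count filter, for replication histone genes and for Gm22710 alone; bars are group means. The first 3 sums are higher in the 4 day 14 off libraries than in the 2 day 14 on libraries, and for Gm22710 day 5 on replicate 1 stands at 921 CPM. Members were chosen by counts summed over all 10 libraries, which favours rare genes high at day 14 off, so the sum of the 121 is no separate support.

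At day 5, no member was higher with R882H off and 1 was lower, Gm23751, where 0.371% of all genes were higher and 0.113% lower. The median log2 change of tested members was -0.18. U4, U2 and U12 copies were not called: Rnu2-10 was at 15.1 and 19.1 CPM off and 18.7 and 9.39 CPM on, and the groups overlapped. At day 5 off, 3 of 10 erythroid marker genes were higher, with a median log2 change of 2.59 over the list. Their summed level did not rise, at 936 and 2085 CPM off and 1316 and 3221 CPM on, and the groups overlapped. The Gm23751 call was lost in turn without day 14 off replicates 1 and 4, day 5 off replicate 2 and day 5 on replicate 2, and no member was called with limma voom.

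The difference between the day 14 and the day 5 effect was tested directly. It was positive for 13 members and negative for 1, where 1.65% and 1.41% of all genes were called in each direction. Snora75 differed most (5.97 ± 1.21, adjusted p = 0.0329), followed by Snora73b (3.59 ± 0.34, adjusted p = 0.00106) and Gm24616 (3.00 ± 0.52, adjusted p = 0.0186), and Gm22956 was negative (-3.09 ± 0.62, adjusted p = 0.0322, edgeR). Snora73b was at 11.1 and 13.8 CPM at day 5 off and 20.5 and 31.6 CPM at day 5 on, the opposite order to day 14. The Snora75 difference rests on 1 and 0 counts at day 14 on. It did not pass with limma voom (adjusted p = 0.0505) or when any 1 library was left out other than day 14 off replicate 3 and day 5 on replicate 1, and its value then ran from 5.03 to 8.45. Gm24616 did not pass without day 14 on replicate 2 (adjusted p = 0.0573) or day 5 off replicate 1 (0.0803). Gm22956 did not pass without day 14 off replicates 1, 2 or 3, day 14 on replicate 2 or either day 5 off library (adjusted p from 0.0537 to 0.0937, edgeR), whereas Snora73b passed in each case. The count of 14 rested on single libraries: it was 3, 4, 8 and 4 without day 14 off replicates 1 to 4, 4 and 2 without day 14 on replicates 1 and 2, 1 without day 5 off replicate 1 and 23 without day 5 on replicate 2.

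**Figure D5:**
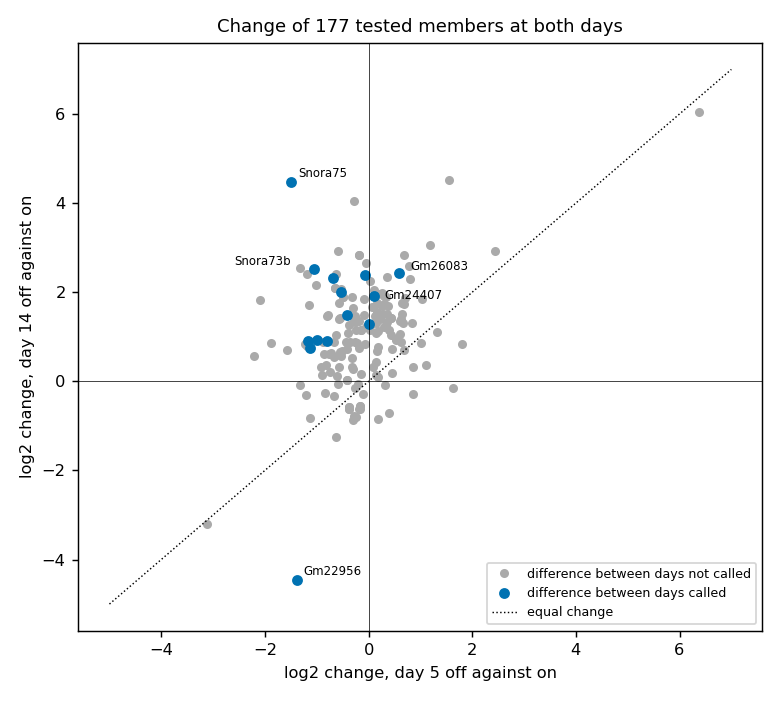
Each point is 1 of 177 tested members, with its log2 change at day 5 on the horizontal axis and at day 14 on the vertical axis; blue points have a called difference between the days and the dotted line marks equal change. Of the 14 blue points 13 lie above the line and Gm22956 lies below it.

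With R882H left on, day 14 against day 5 had no member higher and 3 lower, where 0.968% of all genes were higher and 1.36% lower. The median over tested members was -0.74, against 0.00 over all genes. The falls were Snora75 (1 and 0 counts at day 14 against 7 and 27 at day 5, ratio 0.0315 with an interval of 7.76e-04 to 0.188), Gm24452 in Snhg1 (-1.37, adjusted p = 0.0311, edgeR) and Snora73b (-1.29, adjusted p = 0.0384, edgeR). These on libraries are also the controls of the off comparisons. The number of calls was 0 without day 14 off replicates 1, 2 or 4 or either day 14 on library, 1 without day 14 off replicate 3 or day 5 off replicate 1, 6 without day 5 on replicate 1 and 19 without day 5 on replicate 2.

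With R882H off, day 14 against day 5 had 19 members higher and 2 lower, where 10.1% of all genes were higher and 6.94% lower. These were 10.7% and 1.13% of tested members, so the share of rises is close to the background. The largest rises were Gm24616 (2.30 ± 0.34, adjusted p = 0.00244), Snora73b (2.30 ± 0.24, adjusted p = 9.51e-04) and Gm26473 (2.12 ± 0.50, adjusted p = 0.0195), and the falls were Gm22956 and Snord89 (-0.73 ± 0.23, adjusted p = 0.0489, edgeR). Gm26473 was at 0.412 and 1.30 CPM at day 5 off and had no count in either day 5 on library, which allows up to 0.337 and 0.225 CPM (3 counts). Since it passed the low-count filter only through day 14 off, a rise to that group was built in. Gm26473 did not pass without day 14 off replicate 1 (adjusted p = 0.0555) or day 5 off replicate 1 (0.162). Snord89 did not pass with limma voom (adjusted p = 0.0549) or without any 1 of 7 libraries, namely the 4 of day 14 off, both of day 5 off and day 14 on replicate 2 (adjusted p from 0.0543 to 0.221, edgeR). In the same comparison 8 of 10 erythroid marker genes were higher, with a median log2 change of 2.30, and 3 of 4 macrophage genes, with a median of 1.88; their part in the members' result was not tested. The 21 calls became 12 and 10 without day 14 off replicates 1 and 2, 4 and 6 without day 5 off replicates 1 and 2, and 32 without either day 5 on library.

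Genes for the proteins that bind, build, transcribe or trim these RNAs, 135 in 7 lists, had 59 higher and 4 lower at day 14 off (edgeR), beside 16.9% and 14.9% of all tested genes. All 6 H/ACA proteins were higher, with a median of 0.91, among them Nhp2 (1.16 ± 0.15, adjusted p = 3.56e-04) and the pseudouridine synthase Dkc1 (1.02 ± 0.20). Of the 5 C/D proteins 4 were higher, led by Snu13 (0.78 ± 0.14) and Nop56 (0.86 ± 0.16), while Nop58 was not called (0.28, adjusted p = 0.220). Of 10 snoRNP assembly factors 3 were higher, with Nolc1 (1.23 ± 0.17) and Ruvbl1 (1.02 ± 0.18) of smallest p.

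Of 37 snRNP proteins 19 were higher and none lower, led by Lsm2 (1.47 ± 0.15, adjusted p = 9.64e-05) and the Sm protein gene Snrpd1 (1.07 ± 0.14). In the snRNP assembly list 8 of 20 were higher, with Gemin5 (1.06 ± 0.19) and Strap (0.59 ± 0.14) of smallest p. Of 29 transcription factors and Integrator subunits 5 were higher and 1 lower (Nabp2, -0.58), which is near the share of all genes called higher (16.9%); the rises had Ints5 (0.72 ± 0.14) and Ints3 (0.52 ± 0.14) of smallest p. Trimming and decay genes had 14 of 28 higher and 3 lower, including the exosome gene Exosc7 (0.90 ± 0.15) and the cap-binding gene Ncbp1 (0.79 ± 0.14) among the rises and Usb1, which trims U6, among the falls (-0.56 ± 0.16). Of 17 tested non-coding snoRNA hosts 5 were higher and none lower, led by Snhg5 (1.19 ± 0.15) and Snhg3 (1.31 ± 0.23). The 63 calls became 24 without day 14 on replicate 1 and 36 without day 14 on replicate 2.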

How the data were processed

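Raw read counts for each Ensembl gene, which the authors deposited, were analysed for 10 libraries of polyA RNA (QuantSeq 3′ kit, per the labels). Named in the submitters' processing notes are mm10, limma 3.48.3, edgeR 3.34.0, Subread 2.0.0, featureCounts, HISAT2 2.0.4, cutadapt 1.14 and bcl2fastq 2.17.1.14. The annotation release was not given in the sources used here, nor were the strand and multi-mapping settings. Of the gene identifiers, 52403 matched GENCODE M21 and 233 did not.

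The fit used R 4.3.3 and edgeR 4.0.16 (filterByExpr, TMM, robust quasi-likelihood fit over all 10 libraries, Benjamini-Hochberg adjustment over 15916 genes); DESeq2 1.42.0 and limma 3.58.1 voom were alternatives. On simulated day 14 data the fit recovered 94.0% of genes raised and 82.0% of genes lowered by 2 log2 units, and 40.0% and 34.0% of those raised and lowered by 1. Each change was planted in 50 genes, all above a minimum mean count, so these rates do not describe rare members. Small RNA sequences came from the GENCODE M21 transcripts and were compared with BLAST 2.17.0 (families at 90% identity over 80% of the longer sequence). A host is the same-strand gene with the most counts that contains the member. The members, lists and rules were chosen with earlier results of these data known. Named members are the 3 of highest mean log2 CPM per class, and, among called members without overlap between groups, the 6 largest rises and falls at day 14 and the 3 largest elsewhere; of each gene list, the 2 genes of smallest p. Where leaving out a library left a group with 1, its spread was taken from the other groups. Intervals cover counting error only. The result for 1 host gene is not reported here.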

Additional observations from a re-analysis of the deposited data

Results flagged for a closer look

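In 1 of the named members the 4 day 14 off libraries held a value far from the other 3: Snora81 was at 26.1 CPM in day 14 off replicate 4, a gap of 0.85 of the group's range, above the 95% critical value of Dixon's test. The test was run on 25 groups, and chance flags about 1 in 20 groups, so 1 flag is near what chance gives.

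The off effect differed between day 14 and day 5 for 14 members by the direct test (edgeR, adjusted p below 0.05). The difference in log2 change, day 14 minus day 5, was 5.97 for Snora75, 3.59 for Snora73b, 3.00 for Gm24616, 2.55 for Snora26, 2.45 for Gm25939 (a U2 copy), 2.06 for Snora30, 1.92 for Snord49b, 1.91 for Gm24452, 1.88 for Gm22988, 1.83 for Gm24407, 1.83 for Gm26083, 1.70 for Snord13, 1.29 for Gm26205 and -3.09 for Gm22956.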

How the results depend on the processing

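For day 14 off against on (68 members called), the count was 44 without members in a same-strand exon, and, as alternatives chosen after seeing the data, 30 with a mean of at least 5 CPM and 43 with 1 member per sequence family and locus; fewer members enter each of these. For day 5 (1 call) it was 9 with no low-count filter, 3 with DESeq2, 0 with limma voom and 0 with only the compared groups. For day 14 on against day 5 on (3 calls) it was 17, 9, 1 and 0 under the same settings in that order, and 1 without exon overlap. For day 14 off against day 5 off (21 calls) it was 32 with no filter, 36 with only the compared groups, 11 without exon overlap and 13 at 5 CPM. For the difference between days (14 calls) it was 45 with no filter, 25 with DESeq2, 8 with limma voom and 7 without exon overlap. Where no setting above shows it, the cause was not tested. Leaving out each library gave 28 to 84 calls for day 14, 0 to 3 for day 5, 0 to 19 for on, 4 to 32 for off, 1 to 23 for the difference and 24 to 68 for the pathway genes (63 calls with all libraries).

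The labels give fewer than 3 pairs of replicate numbers per comparison, so the samples share only a number. With a replicate block the calls were 53, 2, 7, 16 and 16 in the order of comparisons above, and 65 pathway genes. Among the named members 3 calls did not pass with it: Snord89 at day 14 (adjusted p = 0.0581) and in off day 14 against day 5 (0.0868), and Gm22972 at day 14 (0.0728, edgeR). Snora81, not called without the block, passed with it (-1.08, adjusted p = 0.0100, edgeR). Differences between replicates 1 and 2 correlated by 0.141 to 0.334 between groups over 15916 genes.

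For the named members, 588 values under alternatives kept direction and side of the threshold, 78 lost their call and 10 gained one, and none reversed. Depth limits rare members: at 3 counts, the CPM limit was 0.207 to 0.337 per library.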
